A study of Canis lupus familiaris with 4 samples.

Results

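The transcripts of the proteasome were followed in mesenchymal stromal cells grown from the adipose tissue of 4 dogs, 1 culture per dog. The genes were chosen by symbol: every row of the deposited table whose gene name begins with PSM, a letter from A to G and a number was taken, which gave 43 of 30951 genes. These hold subunits of the catalytic core, subunits of the regulatory particles, activators, and chaperones of assembly. The name rule also brought in 2 genes that encode partners rather than parts of the proteasome, PSMC3IP, a cofactor of meiotic and homologous recombination, and PSME3IP1, a binding partner of the activator PSME3. A further 7 proteasome genes (PSMA1, PSMB8, PSMB11, PSMC3, PSMC6, PSMD5 and PSMD6) were not analysed here under those symbols. Of the immunoproteasome genes, PSMB9, PSMB10, PSME1 and PSME2 were therefore available and PSMB8 was not.

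The proteasome is the protease that degrades ubiquitin-tagged proteins in the cytosol and nucleus. Its 20S core is a barrel of stacked rings, in which alpha subunits form the gate and beta subunits carry the cutting sites, and the 19S particle on its ends recognises, unfolds and feeds in the substrate. Interferon induces replacement catalytic subunits, which build the immunoproteasome, and the PA28 activator, and both favour peptides that fit MHC class I molecules.

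Total RNA came from primary cell lines of 4 dogs, kept in DMEM with 10% fetal bovine serum and antibiotics and harvested 48 h after seeding without any stated treatment. The series title links the cells to the antimicrobial action of their lyosecretome, the freeze-dried material that they secrete. The labels define a single group (n = 4 dogs) and hence no contrast between conditions, and each culture and its library are 1 sample, so a difference between dogs cannot be told apart from one between cultures or libraries. The question answered is how strongly each proteasome gene is represented and how far the 4 cultures differ.

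Assigned reads numbered 22411268, 16246965, 15203607 and 7474011 in dogs 1 to 4, so the library of dog 4 was the shallowest and its low counts carry the largest counting error. Of 10 stromal marker genes 9 passed the level test described below in the upward direction, and NT5E in the downward one. Their summed level was 70392 CPM in dog 4 and 96247 to 98922 CPM in the other dogs (CPM, reads per 1e6 assigned reads). Most of this sum came from COL1A1 and COL3A1, both lowest in dog 4 after normalization. NT5E, CD44, PDGFRB and PDGFRA were also lowest there, whereas DCN, LUM and ENG were highest there. The leukocyte genes CD3E, MS4A1 and AIF1 and the endothelial genes PECAM1 and EMCN had 0 reads in all dogs, while CD79A, the B-cell receptor chain, had 10221, 6399, 6692 and 2627 reads. Of 9 leukocyte markers measured 4 were detected, with summed levels of 359 to 462 CPM, nearly all from CD79A. CSF1R had 103, 247, 289 and 48 reads in dogs 1 to 4 and passed in neither direction, and 2 others were called below. Of 4 epithelial and mesothelial markers 2 were detected, with a summed level of 58.2 CPM in dog 4 and 1.34 to 1.84 CPM in the other dogs. The keratin KRT18, with 435 reads in dog 4, gave nearly all of it, and EPCAM had 1 read in dog 1 alone. Of 7 endothelial markers 5 were detected (6.96 to 22.0 CPM). VWF had 380, 62, 214 and 12 reads in dogs 1 to 4, and KDR had 95, 65, 76 and 34. These 2 passed in neither direction, and the 3 others detected were called below. Of 3 adipocyte markers 2 were detected (0.0616 to 5.75 CPM).

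Most proteasome genes were well represented in every culture. Nearly all constitutive subunits with a PSM symbol passed the level test, with 26 of 27 called above, beside 33.3% of all tested genes. In the small sets, 1 of 6 assembly chaperones (16.7%) and 1 of 4 immunoproteasome genes (25%) were called above. A level here is a gene's log2 variance-stabilized value minus the median detected gene of the same library, where detected means reads in at least 2 of the 4 libraries. Of the 43 genes 42 were detected and tested. A distance of over 1 log2 unit upward from the median was called for 31 of 42 and one downward for 0, and 11 passed in neither direction (limma, distance 1, Benjamini-Hochberg over 17200 genes). Over all tested genes 33.3% were above and 35.8% below. At an unadjusted p under 0.05, 32 were above and 0 below. The count above depends on where the median is set: taken over genes with reads in all 4 libraries it left 20 members and 17 of the 27 constitutive subunits above, beside 21.7% of all genes. The 11 that lost the call were PSMA2, PSMA5 and PSMA6 of the alpha ring, PSMC1, PSMC5, PSMD4, PSMD7, PSMD12 and PSMD14 of the 19S particle, PSME1 and PSMG1. The median of the members was 2.00, beside -0.02 over all tested genes. The members held 0.250%, 0.247%, 0.265% and 0.212% of the reads in dogs 1 to 4, with exact 95% binomial intervals of 0.248 to 0.252%, 0.244 to 0.249%, 0.262 to 0.268% and 0.208 to 0.215%, which cover counting error only. Dog 4 lay below the other dogs in this share by more than that error. The files give no transcript lengths, so a level reflects reads and not molecules: a long transcript stands higher than a short one of equal copy number, and levels are best compared for 1 gene between dogs.

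**Figure D1:**
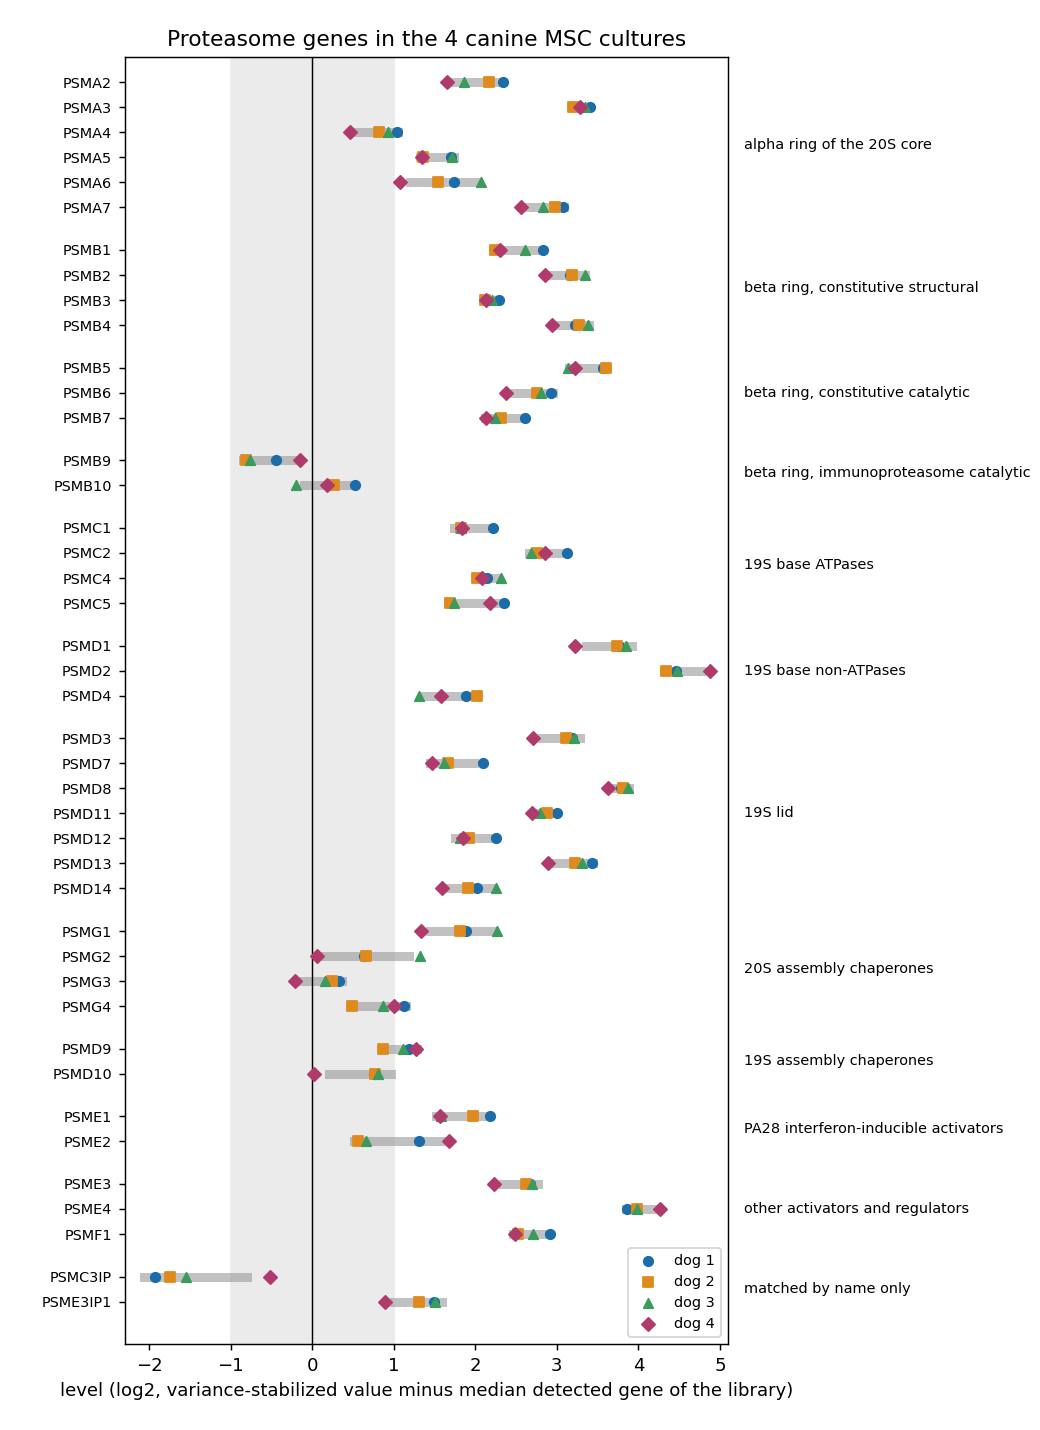
Levels of the 42 tested proteasome genes in each culture, in log2 units above the median detected gene of the library, grouped by role; each symbol is 1 dog, the grey bar is the mean ± SD over 4 dogs and the shaded band is the distance of 1 around the median. Constitutive subunits sit to the right of the band except PSMA4, whereas PSMB9, PSMB10, and most assembly chaperones have their means inside it.

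The alpha ring closes the ends of the core, and its N-termini form the gate. Of 6 measured members 5 were called above, and PSMA4 was not. PSMA3 had 1656, 1461, 1618 and 1527 normalized reads in dogs 1 to 4, where normalized reads are the recovered reads divided by the size factor of the library. Its level was 3.31 ± 0.09 (mean ± SD on the log2 scale over 4 dogs, here and below) and its highest library was 1.13 times its lowest, so the 4 cultures were close. PSMA7 had 1319, 1248, 1123 and 917 normalized reads (level 2.86 ± 0.22). PSMA2 had 782, 705, 567 and 479 normalized reads (level 2.01 ± 0.31). Both were lowest in dog 4 and highest in dog 1. PSMA5 had 494, 393, 509.8 and 384 normalized reads (level 1.53 ± 0.20), with dogs 1 and 3 above dogs 2 and 4. PSMA6 had 510.0, 450.3, 654 and 314 normalized reads (level 1.61 ± 0.41), highest in dog 3 and lowest in dog 4, a 2.08-fold range that was the widest of the ring. PSMA4 had 305, 263, 285 and 199.5 normalized reads (level 0.81 ± 0.25), again lowest in dog 4. PSMA8, the testis-specific replacement of PSMA7, was not detected: it had 5 reads in dog 2 and 0 in dogs 1, 3 and 4, which allow up to 0.134, 0.197 and 0.401 CPM at a limit of 3 reads. PSMA5 and PSMA6 lost their call when dog 1, 2 or 3 was left out, with levels of 1.22 to 1.33 for PSMA5 and 1.28 to 1.37 for PSMA6.

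The beta rings line the catalytic chamber. PSMB1, PSMB2, PSMB3 and PSMB4 encode beta subunits without a cutting site, and all 4 were called above. PSMB4 had 1464, 1539, 1655 and 1199 normalized reads (level 3.21 ± 0.19). PSMB2 had 1401, 1446, 1616 and 1128 normalized reads (level 3.14 ± 0.20). Dog 3 was highest and dog 4 lowest for both. PSMB1 had 1103, 739, 962 and 761 normalized reads (level 2.49 ± 0.27), with dogs 1 and 3 above dogs 2 and 4. PSMB3 had 755, 682, 722 and 674 normalized reads (level 2.19 ± 0.08), the smallest SD of all the members.

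The constitutive cutting sites lie in PSMB5, with chymotrypsin-like activity, PSMB6, with caspase-like activity, and PSMB7, with trypsin-like activity. PSMB5 had 1857, 1942, 1399.5 and 1457 normalized reads (level 3.38 ± 0.24), and here dogs 1 and 2 were above dogs 3 and 4. PSMB6 had 1185, 1068, 1108 and 807 normalized reads (level 2.72 ± 0.24), lowest in dog 4. PSMB7 had 945, 782, 744 and 677 normalized reads (level 2.33 ± 0.20), highest in dog 1 and lowest in dog 4. Each of the 3 was called above (limma, Benjamini-Hochberg adjusted p = 5.33e-08, 6.2e-07 and 3.26e-06 in this order).

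The measured immunoproteasome genes were detected in all 4 cultures in at least 57 reads each. Of PSMB9, PSMB10, PSME1 and PSME2 only PSME1 was called above, and the other 3 passed in neither direction. PSMB9, the interferon-inducible replacement of PSMB6, had 135, 78, 79 and 57 reads in dogs 1 to 4 and 97.0, 72.0, 75.4 and 124 normalized reads. Dog 4 was highest and dogs 2 and 3 lowest, and the level was -0.54 ± 0.31. PSMB10, the replacement of PSMB7, had 289, 188, 126 and 74 reads and 208, 173, 120.3 and 160.5 normalized reads, with dog 1 highest and dog 3 lowest and a level of 0.19 ± 0.30. PSMB9 lies next to the peptide transporter gene TAP1 and near PSMB8 in the RefSeq annotation of the dog assembly UU_Cfam_GSD_1.0, and TAP1 was called above (3.50 ± 0.17, with 2448, 1744, 1801 and 959 reads). In dog 4 TAP1, like PSMB9, had its highest level (3.73 for TAP1 and -0.15 for PSMB9).

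Within each library the reads of an induced subunit were set against those of the subunit that it replaces. This ratio does not hang on the scaling of the libraries, and since the lengths are not known only its change between dogs can be read. There were 8.18, 6.74, 6.80 and 15.3 reads of PSMB9 per 100 reads of PSMB6 in dogs 1 to 4 (exact 95% intervals 6.81 to 9.76, 5.29 to 8.48, 5.35 to 8.55 and 11.4 to 20.3). Dog 4 lay above the intervals of the other dogs. For PSMB10 there were 22.0, 22.2, 16.2 and 23.7 reads per 100 reads of PSMB7 (19.3 to 25.0, 18.8 to 26.0, 13.3 to 19.5 and 18.2 to 30.6). Dog 3 was lowest, and its ratio lay below the intervals of the other dogs, although its own interval overlapped theirs. On the log2 scale the differences were -3.52 ± 0.56 for PSMB9 minus PSMB6 and -2.27 ± 0.25 for PSMB10 minus PSMB7, negative in 4 of 4 dogs. These differences were not tested.

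**Figure D2:**
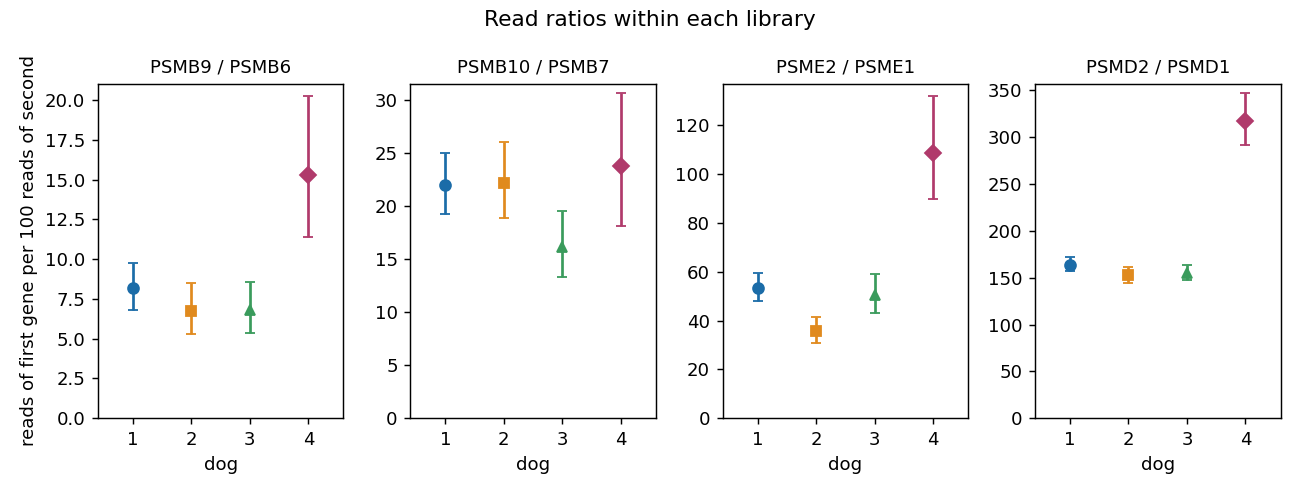
Reads of the first gene per 100 reads of the second within each library for 4 gene pairs, with exact 95% binomial intervals that cover counting error only; each symbol is 1 dog and every axis starts at 0. The ratio in dog 4 stands above the intervals of the other dogs for PSMB9 to PSMB6, PSME2 to PSME1 and PSMD2 to PSMD1, but not for PSMB10 to PSMB7.

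PSME1 and PSME2 encode the alpha and beta subunits of PA28, the ring-shaped activator that opens the core without ATP. PSME1 had 699, 609.9, 462 and 449 normalized reads, with a level of 1.82 ± 0.30 (limma, Benjamini-Hochberg adjusted p = 0.000232), with dogs 1 and 2 higher than dogs 3 and 4. PSME2 had 374, 218, 234 and 488 normalized reads, with a level of 1.05 ± 0.53 (adjusted p = 0.518 in the same limma fit), highest in dog 4 and lowest in dog 2. Dog 4 was thus the lowest library for PSME1 and the highest for PSME2. PSME2 had 53.4, 35.7, 50.6 and 109 reads per 100 reads of PSME1 (exact 95% intervals 48.0 to 59.5, 30.6 to 41.5, 43.2 to 59.2 and 89.6 to 132), a pair chosen after its values were seen. Both genes lie close together in the RefSeq annotation, with EMC9 between them, and EMC9 overlaps PSME1 there, so reads of PSME1 and EMC9 may be mixed where the strand was not used.

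Genes that govern or use the immunoproteasome did not share one order of the dogs. Of 7 measured interferon regulators, 5 were called above and 2 passed in neither direction. JAK1, a kinase of the interferon receptors, was the highest (4.99 ± 0.24). IRF1, the interferon-induced activator of several immunoproteasome genes, stood at 2.09, 1.76, 1.77 and 1.50 in dogs 1 to 4. It was lowest in dog 4, where PSMB9 and PSME2 were highest. The kinase JAK2 stood at 4.35, 3.95, 3.71 and 4.96 and NLRC5, the class I transactivator, at 0.82, 1.06, 0.60 and 1.00. Of 10 class I peptide loading genes 8 were above, led by the chaperone CANX (6.13 ± 0.16), the aminopeptidase ERAP2 was below (-1.81 ± 0.67) and TAPBPL passed in neither direction. The class I heavy chain gene DLA88 had levels of 2.08, 2.13, 2.38 and 4.86, highest in dog 4, while its light chain B2M had 5.27, 4.99, 4.64 and 4.29, lowest in dog 4. DLA88 belongs to a family of similar class I genes, so its reads are uncertain.

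All 14 measured 19S subunits with a PSM symbol were called above, whereas SEM1, a lid subunit outside that naming, passed in neither direction. The ATPases of the base unfold the substrate. PSMC2 had 1358, 1068, 1014 and 1128 normalized reads (level 2.85 ± 0.19), and PSMC4 had 682, 634, 782 and 653 normalized reads (level 2.14 ± 0.13). PSMC5 had 786, 497, 516 and 698 normalized reads (level 1.99 ± 0.33), with dogs 1 and 4 above dogs 2 and 3. PSMC1 had 715, 549, 551 and 549 normalized reads (level 1.93 ± 0.19). For PSMC1 the library of dog 1 stood apart (a gap to its neighbour above Dixon's 95% critical share of the range) from the other dogs, which lay within 3 normalized reads of each other. PSMC1 overlaps NRDE2 in the RefSeq annotation.

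PSMD2 and PSMD1, the large scaffold subunits of the base, were among the most heavily read members. PSMD2 had 3488, 3245, 3578 and 4637 normalized reads (level 4.54 ± 0.23), the highest level of all members, and was highest in dog 4. PSMD1 had 2128, 2127, 2308 and 1459.5 normalized reads (level 3.64 ± 0.29) and was lowest in dog 4. The 2 scaffolds therefore diverged in dog 4: PSMD2 had 164, 153, 155 and 318 reads per 100 reads of PSMD1 in dogs 1 to 4 (exact 95% intervals 157 to 172, 145 to 161, 147 to 163 and 291 to 347), a pair also chosen after its values were seen. PSMD4, a ubiquitin receptor, had 565, 636, 379.9 and 453 normalized reads (level 1.70 ± 0.32), highest in dog 2 and lowest in dog 3, and it lost its call without dog 1 (1.38) or dog 2 (1.33).

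The lid removes ubiquitin before degradation. Its deubiquitinase PSMD14 had 624, 585, 747 and 459.8 normalized reads (level 1.95 ± 0.27), highest in dog 3 and lowest in dog 4, and PSMD7, the inactive partner of PSMD14, had 655, 492, 475 and 421 normalized reads (level 1.71 ± 0.26). Of the scaffold subunits of the lid, PSMD8 had 2174, 2244, 2339.8 and 1945 normalized reads (level 3.78 ± 0.10), with one of the 3 smallest SDs of the members. PSMD13 had 1684, 1488, 1579.9 and 1154 normalized reads (level 3.21 ± 0.23), PSMD3 1422, 1368, 1475 and 1013 normalized reads (level 3.05 ± 0.24) and PSMD11 1254, 1166, 1099.7 and 1011 normalized reads (level 2.85 ± 0.13). PSMD12 had 738, 591, 544 and 551 normalized reads (level 1.96 ± 0.20). Dog 4 was lowest for all of these lid genes except PSMD12, for which dog 3 was.

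The assembly chaperones help build the particles and then leave them. Of 6 measured, PSMG1 was called above and 5 passed in neither direction. PSMG1 and PSMG2 act as a dimer on the alpha ring. PSMG1 had 564, 546, 753 and 379.5 normalized reads (level 1.82 ± 0.38), and PSMG2 had 226, 233, 382 and 145 normalized reads (level 0.67 ± 0.52), a 2.63-fold range. Both were highest in dog 3 and lowest in dog 4. The other pair, PSMG3 and PSMG4, differed from them: PSMG3 had 179, 171, 159 and 117 normalized reads (level 0.13 ± 0.24), lowest in dog 4, and PSMG4 had 327, 206, 274 and 297 normalized reads (level 0.87 ± 0.28), lowest in dog 2. Of the chaperones of the 19S base, PSMD9 had 340.5, 274, 328 and 362 normalized reads (level 1.11 ± 0.17). PSMD10, also known as gankyrin, had 249, 256, 262 and 141 normalized reads (level 0.59 ± 0.38), and its dog 4 library stood apart below the other dogs, which lay close to each other.

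Among other regulators, PSME4, the large nuclear activator PA200, had 2286, 2523, 2524 and 3023 normalized reads (level 4.02 ± 0.17), the next highest level after PSMD2 and again highest in dog 4. PSME3, the nuclear PA28 subunit that is not part of the interferon-inducible pair, had 993, 971, 1022 and 726 normalized reads (level 2.56 ± 0.22), and dog 4 stood apart below the others. PSMC1, PSMD10 and PSME3 were the 3 members (7.14%) with such a library by Dixon's ratio, beside 5.36% of all tested genes and 5.71% of the genes called above. PSMF1, also known as PI31, had 1177, 909, 1029 and 867 normalized reads (level 2.66 ± 0.20). The 2 genes matched by name alone passed in neither direction. PSMC3IP had 33, 32, 38 and 42 reads and 23.7, 29.5, 36.3 and 91.1 normalized reads (level -1.44 ± 0.63, limma adjusted p = 0.106), a 3.84-fold range with dog 4 highest, and it was called below without dog 4 (-1.98, adjusted p = 0.00204 by limma with Benjamini-Hochberg adjustment). PSME3IP1 had 427, 377, 437 and 273 normalized reads (level 1.30 ± 0.29, limma adjusted p = 0.0529), lowest in dog 4.

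Across the members, dog 4 was most often the lowest culture and dog 1 the highest, with a few genes in the opposite order. Of the 42 tested genes, dog 4 was the lowest library for 24 (57.1%) and dog 1 the highest for 20 (47.6%). Over all detected genes dog 4 was lowest for 28.8% and dog 1 highest for 22.4%, and over the 5723 genes called above the shares were 34.8% and 29.4%. For the 12 other proteasome genes described below, which have no PSM symbol, dog 4 was lowest for 2 (16.7%) and dog 1 highest for 4 (33.3%). In dog 4 all 13 measured constitutive genes of the 20S core lay below their own 4-dog mean, with a median deviation of -0.26, and 3 of the 14 PSM genes of the 19S particle (PSMD2, PSMC5 and PSMC2) lay above theirs. In dog 1 all 13 core genes lay above their mean, by 0.18 in the median. The genes called above had median deviations of 0.00 in dog 4 and 0.05 in dog 1. The constitutive core took 0.0649% of the reads in dog 4, against 0.0856%, 0.0848% and 0.0893% in dogs 1 to 3. Dogs are not groups of the design, so these are descriptions with no test.

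**Figure D3:**
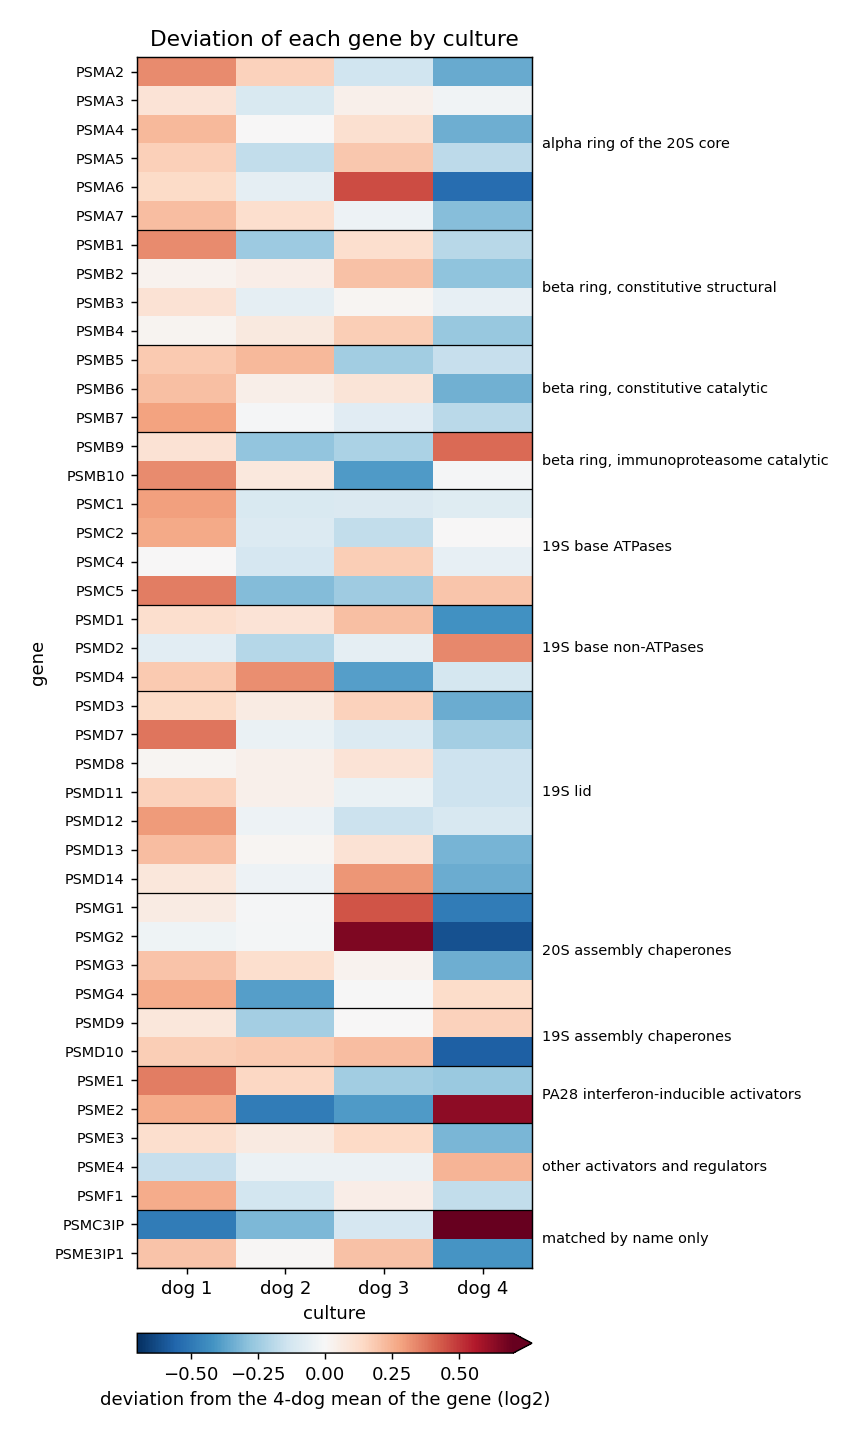
Deviation of each tested gene (rows, by role) in each culture (columns) from its own mean over the 4 dogs, in log2 units; red is higher and blue lower, and the colour scale ends at 0.7. The constitutive core genes are blue throughout in dog 4, whereas PSME2, PSMB9, PSMD2 and PSMC3IP are red there.

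Cytosolic ribosomal protein genes moved in the same direction in dog 4: 45 of 54 detected were lowest there, with a median deviation of -0.46, and they took 1.00% of the reads in dog 4, against 1.70%, 1.68% and 1.69% in dogs 1 to 3. The sum of the stromal markers (mostly COL1A1 and COL3A1), the level of KRT18 and the depth of the library also set dog 4 apart, as given above. Their part in the order of the proteasome genes was not tested. With all libraries thinned to the depth of dog 4, 31 members were again above, a count that does not bear on the order of the dogs.

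No proteasome gene passed the test for a larger spread between dogs than genes of like level. The SD between dogs was tested against the trend of the SD over all genes, and 0 of 42 members passed, beside 0 (0.0%) of the 17200 genes tested (limma prior, F test, Benjamini-Hochberg). At an unadjusted p under 0.05 there were 0 of 42 members, beside 5.2% of all genes, and the smallest unadjusted p was 0.118, for PSME2. The median SD was 0.24 for the members, beside 0.36 for all tested genes and 0.24 for the genes called above. The highest library was under 1.5 times the lowest for 23 of 42 members (54.8%), beside 25.5% of all tested genes and 54.5% of the genes called above, which is close to the members' share. The range exceeded 2-fold for 4 genes, PSMA6, PSMG2, PSME2 and PSMC3IP.

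**Figure D4:**
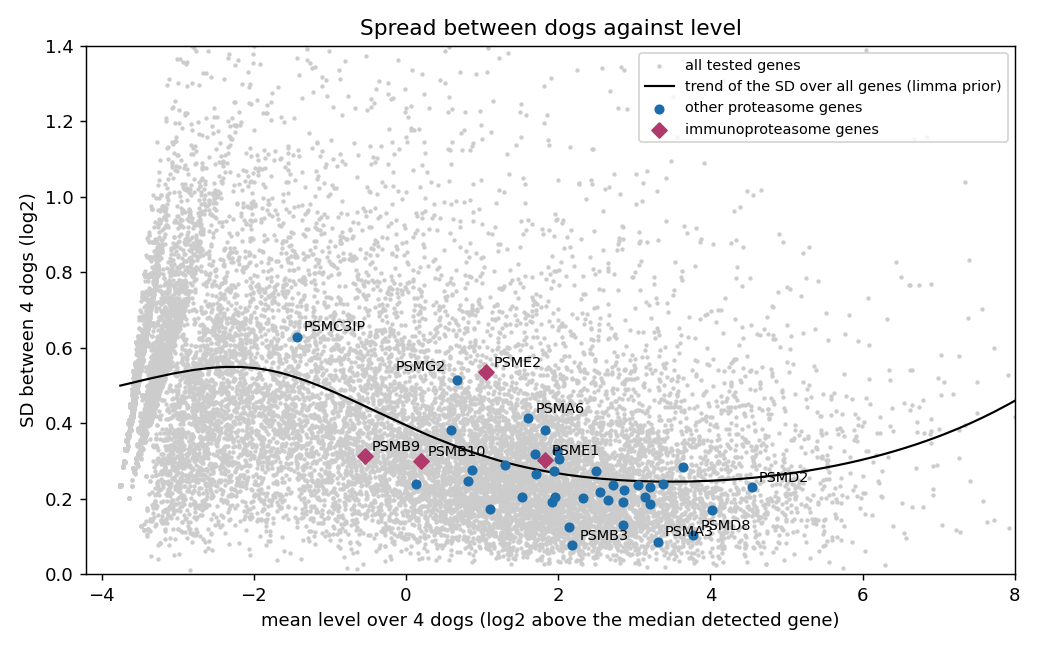
SD between the 4 dogs against mean level (both log2) for all tested genes (grey), proteasome genes (blue circles) and the 4 immunoproteasome genes (diamonds), with the trend of the SD as a black line; genes with an SD over 1.4 or a level over 8 lie outside the axes. The members lie on both sides of the trend, with PSMC3IP, PSME2 and PSMG2 at the top.

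Genes that work with the proteasome were mostly well represented too. Of 12 other proteasome genes measured, 9 were called above and 3 passed in neither direction, among them the lid subunit SEM1 (-1.07 ± 0.43) and the 19S chaperone PAAF1 (-0.26 ± 0.23). The scaffold ECPAS (4.47 ± 0.10), the deubiquitinase USP14 (3.53 ± 0.10) and the ubiquitin ligase UBE3C (3.51 ± 0.06) were the highest, and the ubiquitin receptor ADRM1 stood at 3.48 ± 0.26. Of 11 genes of the NFE2L1 pathway, which raises proteasome gene transcription when the proteasome is impaired, 7 were above and 4 in neither direction. NFE2L1 itself stood at 4.41, 4.21, 4.05 and 4.60 in dogs 1 to 4, highest in dog 4, and its relative NFE2L2 at 4.25, 4.14, 3.73 and 3.67. The segregase VCP (4.86 ± 0.19) and SEL1L (4.55 ± 0.15) were the highest of that list, and MAFK (-0.20 ± 0.58), MAFF (0.25 ± 1.12) and MAFG (0.30 ± 0.18) the lowest. All 5 measured genes of ubiquitin supply and activation were above, led by the activating enzyme UBA1 (5.48 ± 0.07), and the polyubiquitin gene UBB, whose repeats resemble those of other ubiquitin genes, ranged most, with 2.77, 2.13, 1.42 and 1.17. Of 11 detected shuttle and segregase factors 9 were above, led by BAG6 (4.47 ± 0.20), RAD23B (4.13 ± 0.18) and UBQLN1 (3.78 ± 0.16). Of 8 genes of the COP9 signalosome, a complex built on the same plan as the lid, 7 were above, led by GPS1 (2.98 ± 0.13). UFD1 and UBQLN4 of the shuttle list and COPS7B of the signalosome passed in neither direction.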

How the data were processed

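Total RNA of 4 primary cultures was sequenced from ribosomal RNA-depleted, stranded libraries made from 10 ng of RNA, per the labels' protocols. FastQC 0.12.1, Trimmomatic 0.39, STAR 2.7.11a and DESeq2 with build CanFam3.1 are named in the submitters' processing notes. Which program counted the reads, whether it used strand, and which annotation it read were not given in the sources used here. The authors deposited log2 values after a variance-stabilizing transformation, per the file name, and no per-sample column was left unused.

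The transformation was inverted from its lowest value, which gave whole reads for 100% of values within 0.01 reads and size factors of 1.39, 1.08, 1.05 and 0.461 for dogs 1 to 4. The level test was run with limma 3.58.1 under R 4.3.3 over the 17200 genes with reads in at least 2 libraries. It used an intercept only, a trended prior, distance 1, Benjamini-Hochberg adjustment and a threshold of 0.05. Variability was tested by an F test against the prior. Both were also run on simulated levels that shared a common SD, apart from a set made more variable. In the data the SD changes with level, so that simulation was a simpler setting. A p-value reflects the spread between dogs. Ratios of reads have exact (Clopper-Pearson) 95% intervals. RefSeq (UU_Cfam_GSD_1.0) matched all 43 symbols and served only for neighbours: 13 members overlap another gene there, so their reads are uncertain without strand. Pseudogene copies were not checked.

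Members and lists were chosen with earlier results of these data known. Every member is named. The other lists are given by counts, with names from their 3 highest and 3 lowest genes, and genes outside that rule (TAP1, DLA88, B2M, NFE2L2 and ADRM1) were chosen after their values were seen. Comparing an induced subunit with its constitutive partner per coding length had been planned, but no lengths were used here, so plain read ratios are given, and PSMB8 could not be compared.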

Additional observations from a re-analysis of the deposited data

Results flagged for a closer look

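A library was singled out where the distance to its neighbour, as a share of the whole range of the 4 dogs, exceeded Dixon's 95% critical value, which chance passes in about 1 of 20 groups. For PSMC1 the library of dog 1 stood highest, at a level of 2.21, with 1.82, 1.82 and 1.84 in dogs 2 to 4. For PSMD10 dog 4 stood lowest, at 0.020, with 0.76, 0.78 and 0.81 in dogs 1 to 3. For PSME3 dog 4 stood lowest as well, at 2.23, with 2.68, 2.62 and 2.69 in dogs 1 to 3. These are 3 of 42 genes, or 7.14%, beside 5.36% of all tested genes.

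The log2 difference of PSMD2 minus PSMD1, a pair picked after its values were seen, was 1.67 in dog 4, with 0.71, 0.61 and 0.63 in dogs 1 to 3. The share of reads from cytosolic ribosomal protein genes was 1.00% in dog 4, with 1.70%, 1.68% and 1.69% in dogs 1 to 3.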

How the results depend on the processing

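Of 42 members 31 were called above. This count was 20 when the median was taken over genes with reads in all libraries, which shifts the median of all tested genes by -0.82, and 18 at a distance of 2, where 21.7% and 19.1% of all genes were above. It was 31 to 36 under the other full-sample alternatives and 28 to 31 with 1 dog left out. Of the 27 constitutive subunits 17 were above with that narrower median and 15 at a distance of 2, and none of the 4 immunoproteasome genes was in either. The count called below, 0, was 1 (PSMC3IP) with the narrower median, at a distance of 0.5, on log2 of normalized reads plus 1 and after thinning, and 0 to 1 with 1 dog left out (PSMC3IP again, without dog 4). With no filter it was also 1, but there it was PSMA8, which is tested only in that setting. The median level of the members, 2.00, was 1.17 with the narrower median, 1.83 after thinning and 1.65 to 1.89 with 1 dog left out. The narrower median lowered every 4-dog mean level by the same amount, because only the reference subtracted in each library differed. The shift was not the same in each dog, and the median SD of the members went from 0.24 to 0.23. PSMA3, for instance, went from 3.31 to 2.49 and PSMB10 from 0.19 to -0.63. The cause of the other shifts was not tested. No member passed the variability test (0 of 42) in the 13 alternatives that refit it, and 0 had an unadjusted p under 0.05, or 1 with no filter, and the read differences of PSMB9 to PSMB6 and PSMB10 to PSMB7 moved by less than their SD. Of the single member levels under the alternatives, 585 kept their side of the threshold, 32 lost the call, 13 gained one, and none of the called ones changed sign. Alternatives per coding length were not run. No paired analysis was possible because the labels define 1 group. The shallow library of dog 4 limits the low genes, with 57 reads of PSMB9 there.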
